A study of Homo sapiens with 3 samples.

Results

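Chromatin immunoprecipitation followed by sequencing had been done in MDA-MB-231, a triple-negative human breast cancer cell line, and 596 of the 2926 RBPJ peaks of that experiment lay between protein-coding genes. A peak was taken as intergenic when its summit was more than 1000 bp from every protein-coding transcription start site (TSS) and outside every protein-coding gene body of GENCODE 44 on hg19. The remaining RBPJ peaks were 1876 promoter peaks, with the summit within 1000 bp of a TSS, and 454 genic peaks, inside a gene body but away from a TSS. The experiment compared where RBPJ (also called CBF1) and L3MBTL3 lie on chromatin, with 1 library for each antibody and 1 for input DNA, all from cells grown in the same medium with no treatment stated. Each library had 30 to 40 M aligned single-end reads of 50 cycles, per the labels, where M stands for megareads. The L3MBTL3 list held 444 peaks, of which 48 were intergenic by the same rule, and the input had no peak list to analyse here. Because each antibody had 1 library of 1 cell line, no replicate error can be given, and peak lists hold no expression values by which the cell line could be checked. Intervals and tests here run over peaks and describe these lists rather than repeated experiments, and neighbouring peaks are not independent of each other.

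RBPJ is the DNA-binding protein of the Notch pathway. Without Notch signalling it recruits corepressors, and when the cleaved intracellular part of a Notch receptor enters the nucleus the same protein becomes part of an activating complex. L3MBTL3, a chromatin protein whose MBT domains bind methylated lysine, is known as a corepressor partner of RBPJ. Many Notch-responsive elements are distal enhancers, where other factors also bind: AP-1, a dimer of FOS and JUN proteins that responds to growth and stress signals, TEAD, the DNA partner of the Hippo pathway effector YAP, and RUNX proteins.

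The high-affinity RBPJ word was CGTGGGAA or TGTGGGAA and its shorter core was TGGGAA. The word for AP-1 was TGACTCA or TGAGTCA, that for TEAD was GGAATG, and that for RUNX was TGTGGTT. Words were searched on both strands within 100 bp of each summit, a window of 201 bp. A peak is said to hold a word when the word is in this window, which can reach past the ends of a narrow peak. A match is a stretch of letters and does not show binding. The TEAD word and the RBPJ core can share bases, since TGGGAATG holds both.

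Stretches of 8 peaks are printed because each shows a word arrangement that the counts below rest on. All are the plus strand of GRCh37 with the bases of the words in capitals. The stretch near NR4A2 (chr2:156736658-156736791) is from the intergenic peak of highest fold and holds a core, a RUNX word and TEAD words in both orientations. That of HES1 (chr3:193789042-193789108) and that of NODAL (chr10:72218223-72218283) are from peaks that L3MBTL3 overlapped, the first with a TEAD and the second with an AP-1 word beside the high-affinity word. That near CELF2 (chr10:10836772-10836958) lies at the start of a noncoding gene and holds RBPJ, TEAD and RUNX words. That near BPI (chr20:36919584-36919697) has 2 high-affinity words 4 bases apart and an AP-1 word. That near F2RL1 (chr5:76100430-76100530) shows RBPJ and TEAD words on shared bases. That near PLAUR (chr19:44196035-44196089) has a high-affinity and a core word in a peak 367 bp from a noncoding TSS. That near CD34 (chr1:208042527-208042558) is from the CpG-rich start of MIR29B2CHG, where L3MBTL3 also had a peak.
NR4A2: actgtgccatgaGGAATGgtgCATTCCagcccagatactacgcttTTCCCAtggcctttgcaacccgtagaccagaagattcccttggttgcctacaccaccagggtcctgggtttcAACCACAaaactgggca
HES1: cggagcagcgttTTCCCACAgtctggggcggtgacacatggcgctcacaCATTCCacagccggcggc
NODAL: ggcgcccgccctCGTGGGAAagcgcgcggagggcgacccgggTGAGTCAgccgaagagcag
CELF2: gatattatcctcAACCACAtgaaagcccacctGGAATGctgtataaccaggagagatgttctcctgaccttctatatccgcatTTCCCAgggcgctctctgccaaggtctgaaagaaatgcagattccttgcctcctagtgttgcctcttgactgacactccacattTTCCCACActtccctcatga
BPI: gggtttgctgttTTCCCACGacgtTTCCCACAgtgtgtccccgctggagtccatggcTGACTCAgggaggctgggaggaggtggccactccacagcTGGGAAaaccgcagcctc
F2RL1: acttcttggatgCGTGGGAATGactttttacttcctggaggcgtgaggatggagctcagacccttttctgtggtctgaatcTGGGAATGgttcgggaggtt
PLAUR: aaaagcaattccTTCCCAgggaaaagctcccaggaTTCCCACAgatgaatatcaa
CD34: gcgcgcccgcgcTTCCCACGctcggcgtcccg

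All 5 words were more frequent at intergenic RBPJ summits than 2 kb away. The high-affinity word was in 78 of 596 windows at the summit (13.1%, 95% Wilson interval 10.6 to 16.03) and in 3 windows centred 2 kb to the lower-coordinate side (0.503%). Over all RBPJ peaks its share was 8.51%. The core was in 254 windows (42.6%, 38.7 to 46.6) against 88 flank windows (14.8%), and in 29.5% of all RBPJ peaks. The AP-1 word was in 133 windows (22.3%, 19.2 to 25.8) against 15 flanks (2.52%), and in 11.2% of all RBPJ peaks. The TEAD word was in 129 windows (21.6%, 18.5 to 25.1) against 56 flanks (9.40%), with 13.7% over all RBPJ peaks. The RUNX word was in 39 windows (6.54%, 4.82 to 8.82) against 19 flanks (3.19%), with 3.38% over all RBPJ peaks.

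In exact McNemar tests, two-sided and Benjamini-Hochberg adjusted over the 5 words, the difference from the flank passed for the high-affinity word (adjusted p = 1.74e-20), the core (1.52e-24), AP-1 (5.31e-26), TEAD (1.22e-08) and RUNX (0.00779). The words were chosen with earlier results of these data known. The word tests here and below are therefore not independent of these peaks. The RUNX call ended against the flank 2 kb to the other side, where 5.20% of windows held the word (exact McNemar test, adjusted p = 0.403), within 50 bp (3.02% against 2.18%, 0.442) and in the 158 peaks with a −log10 q of at least 5 (5.70% against 3.16%, 0.388). Summit windows were richer in G and C than their flanks, with a median of 60.2% against 47.3%, and how much of the differences base composition gives was not tested. Windows of the same size at every 100 kb of intergenic sequence gave a further level: the high-affinity word was in 1.22% of 15221 such windows, the core in 15.8%, AP-1 in 3.12%, TEAD in 10.7% and RUNX in 4.08%. Their median G and C content was 39.3%, lower than that of the flanks, so they are not matched to the summits in base composition.

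**Figure D1:**
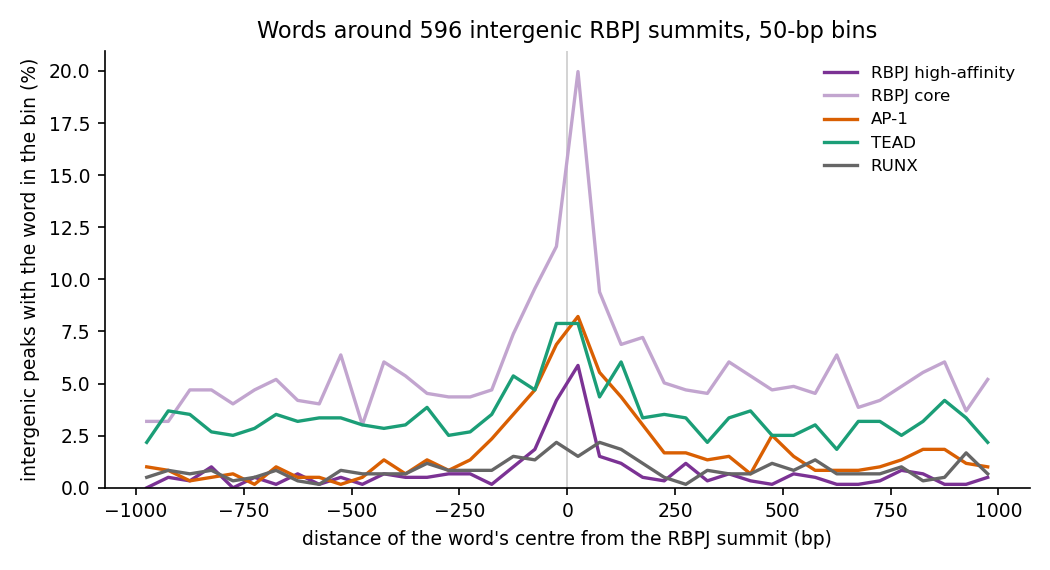
Share of the 596 intergenic RBPJ peaks (percent, y axis) with each word in 50-bp bins from 1000 bp below to 1000 bp above the summit (x axis, bp), 1 line per word. The core reaches 19.97% in the bin just above the summit, where AP-1 is at 8.22% and the high-affinity word at 5.87%, and the RUNX line stays at or below 2.18%.

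The RBPJ words lay closer to the summit than the words of the other factors. Among peaks with a word within 250 bp, the median distance was 32 bp for the high-affinity word (98 peaks, quartiles 13.5 and 82 bp) and 48.5 bp for the core (347 peaks). It was 57 bp for AP-1 (191 peaks), 81.5 bp for TEAD (228 peaks) and 88 bp for RUNX (75 peaks). These distances are given as a description. The form CGTGGGAA was in 42 intergenic peaks and TGTGGGAA in 37. A single copy of the high-affinity word was the rule: 75 peaks had 1 and 3 had 2, among them the peak near BPI printed above. Counting the core, AP-1, TEAD and RUNX as 4 families, 222 peaks (37.2%) held none, 220 held 1, 127 held 2, 27 held 3 and 0 held all 4.

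Genic peaks away from promoters differed from intergenic peaks in 1 of the 5 words. The TEAD word was in 29.1% of 454 genic peaks against 21.6% of intergenic peaks (odds ratio 0.674, 95% interval 0.509 to 0.893, Fisher's exact test, adjusted p = 0.0103). In the same exact test this call ended in the CpG-poor peaks taken alone (0.929, adjusted p = 0.870), with words within 50 bp (0.890, 0.546), with a −log10 q of at least 5 (0.792, 0.530), with a 7-letter TEAD word (0.845, 0.527) and without chromosome 1 (0.720, 0.0544). The odds ratio was 0.885 (0.622 to 1.26) for the high-affinity word, 0.886 (0.693 to 1.13) for the core, 0.765 (0.576 to 1.01) for AP-1 and 1.03 (0.624 to 1.69) for RUNX, and none of these 4 passed. Within 250 bp the first 3 of them did pass, each with a smaller share of intergenic peaks holding the word. AP-1 also passed without chromosome 6 (0.708), 8 (0.713) or 19 (0.721). The RUNX comparison turned with a relaxed RUNX word, which 20.97% of intergenic and 29.7% of genic peaks held (0.627, Fisher's exact test, adjusted p = 0.00245), and this difference passed. It also turned, without passing, at a −log10 q of at least 5 (0.683), within 250 bp (0.983) and without chromosome 2, 3, 17 or 20. At the same q the high-affinity word and the core turned as well (both 1.21), and neither passed.

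Promoter peaks held every word less often. The high-affinity word was in 5.60% of 1876 promoter peaks (odds ratio of intergenic over promoter 2.54, 1.87 to 3.46, Fisher's exact test, adjusted p = 2.28e-08), and the core in 21.5% (2.72, 2.23 to 3.30, 3.09e-22). AP-1 was in 3.79% (7.30, 5.38 to 9.91, 4.34e-38), TEAD in 7.46% (3.43, 2.64 to 4.44, 5.30e-19) and RUNX in 1.65% (4.17, 2.58 to 6.74, 2.29e-08). These are two-sided Fisher's exact tests adjusted over the 10 comparisons with both classes. CpG content differed along with position: 94.5% of promoter peaks, 35.1% of intergenic and 14.8% of genic peaks were CpG-rich, meaning an observed over expected CpG ratio above 0.6 in the 1 kb around the summit. Within CpG-poor peaks, where 103 promoter peaks remained, the odds ratio was 1.50 for the high-affinity word, 1.69 for the core, 1.17 for AP-1 and 1.76 for RUNX. None of these 4 passed the Fisher's exact test there. The TEAD word, in 29.7% of intergenic and 15.5% of promoter peaks of this kind, did (2.30, Fisher's exact test, adjusted p = 0.0380). Over all peaks a 7-letter TEAD word gave 9.49 and the relaxed RUNX word 1.82, both past the test.

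**Figure D2:**
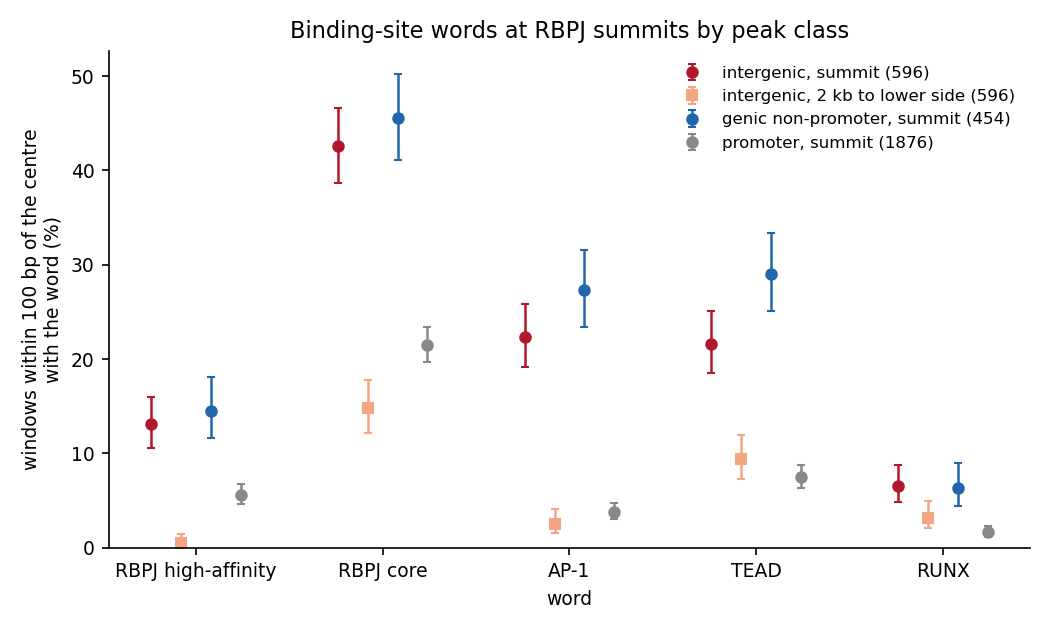
Share of 201-bp windows with each word (percent, y axis) at intergenic, genic and promoter RBPJ summits and 2 kb to the lower side of intergenic summits. Points are shares and bars are 95% Wilson intervals. AP-1 is at 22.3% in intergenic, 27.3% in genic and 3.79% in promoter peaks.

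Intergenic RBPJ peaks fell into 2 kinds by CpG content, 387 CpG-poor and 209 CpG-rich. The division was chosen after the data were seen, so the shares are given as a description with 95% Wilson intervals. CpG-poor peaks held the core in 52.7% of cases (47.7 to 57.6), AP-1 in 31.5% (27.1 to 36.3), TEAD in 29.7% (25.4 to 34.5), the high-affinity word in 15.2% (12.01 to 19.2) and RUNX in 9.82% (7.24 to 13.2). CpG-rich peaks held the core in 23.9% (18.6 to 30.1), AP-1 in 5.26% (2.96 to 9.18), TEAD in 6.70% (4.03 to 10.9), the high-affinity word in 9.09% (5.90 to 13.8) and RUNX in 1 of 209. The TEAD and RUNX shares of CpG-rich peaks were below those of their own lower flanks (10.05% and 4.78%) and higher flanks (9.09% and 7.18%). The AP-1 share was above its lower and higher flanks (1.44% and 0.957%), as were the shares of both RBPJ words. Summit and flank windows are paired, so separate intervals do not measure these differences, which were not tested.

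The kinds also differed in what lay beside them. A noncoding TSS was within 1 kb of 123 CpG-rich peaks (58.9%) and 66 CpG-poor peaks (17.1%), and an L3MBTL3 peak overlapped 15 and 2 of them. Median RBPJ fold was 5.08 in CpG-rich and 5.11 in CpG-poor peaks. CpG-poor genic peaks, which also numbered 387, held the core in 48.6%, AP-1 in 30.7%, TEAD in 31.3%, the high-affinity word in 15.2% and RUNX in 7.49%. In Fisher's exact tests none of the 5 differences between CpG-poor intergenic and CpG-poor genic peaks passed, with odds ratios of 0.929 for TEAD, 1.04 for AP-1 and 1.18 for the core.

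**Figure D3:**
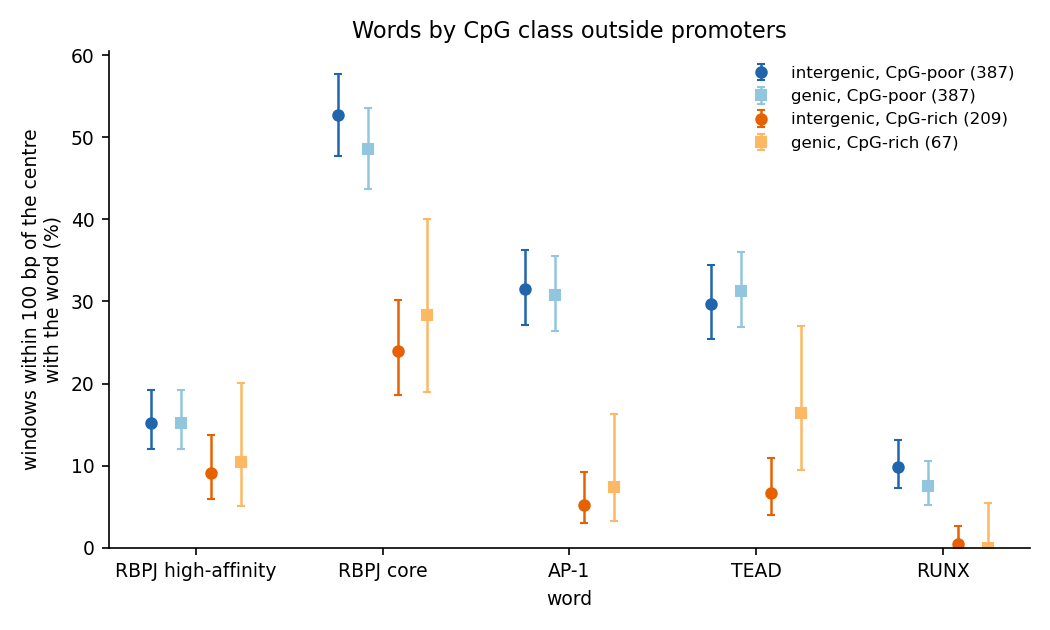
Share of 201-bp windows with each word (percent, y axis) in CpG-poor and CpG-rich RBPJ peaks outside promoters, intergenic (circles) and genic (squares). Points are shares and bars are 95% Wilson intervals. For AP-1, TEAD and the core, CpG-rich intergenic peaks (core 23.9%) lie below CpG-poor intergenic peaks (core 52.7%).

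Distance from the nearest protein-coding TSS had a median of 34.0 kb and reached 1647 kb. There were 119 peaks at 1 to 10 kb, 247 at 10 to 50 kb and 230 beyond 50 kb. The peak lay upstream of the gene with the nearest TSS for 79.8% of peaks in the nearest band, 65.6% in the middle and 50.4% in the farthest. The rule leaves out gene bodies, which lie downstream of a gene's TSS, so it favours upstream summits, most of all close to a TSS. These shares therefore cannot be read as a preference for a side. In genic peaks the upstream share was 30.4%. The words were compared between the farthest and the nearest band. The high-affinity word was in 16.1% against 7.56% (odds ratio 2.34, 1.09 to 5.04), the core in 48.7% against 36.1% (1.68, 1.06 to 2.64), AP-1 in 26.5% against 15.97% (1.90, 1.07 to 3.36) and RUNX in 6.96% against 1.68% (4.37, 0.989 to 19.3). The adjusted p was 0.0502 for each of these 4 and 0.174 for TEAD (24.3% against 17.6%) in Fisher's exact tests, so none passed 0.05. Without peaks in repeated sequence the same 4 did pass, at 0.0391 to 0.0473. Within 50 bp the high-affinity word (3.42), AP-1 (2.92) and TEAD (2.29) passed, and within 250 bp the high-affinity word (2.17), AP-1 (2.54) and RUNX (2.78) did. CpG-rich peaks made up 47.1% of the nearest, 36.8% of the middle and 27.0% of the farthest band, and within CpG-poor peaks no word passed (0.292 at the lowest).

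Some intergenic peaks lay in repeated sequence. The 50-base stretches around the summit occurred more than once in the genome for 62 intergenic peaks (10.4%, 8.20 to 13.1), against 3.25% of all RBPJ peaks. The share was 5.88% in the nearest, 10.1% in the middle and 13.04% in the farthest band. Reads from such copies cannot be told apart, so the position of these 62 peaks is uncertain. By chromosome, intergenic peaks ranged from 0 on chromosome 22, which had 10 RBPJ peaks in all, to 65 on chromosome 6, which had 327.

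Fold enrichment, the deposited ratio of signal at the summit over the caller's background, showed no difference between classes that passed a test. Its median was 5.10 in intergenic peaks (quartiles 4.56 and 5.83, range 2.09 to 15.02), 5.21 in genic and 5.08 in promoter peaks. A fold at or above the median of the whole list was found in 52.7% of intergenic peaks, 56.4% of genic peaks (odds ratio 0.861, 0.674 to 1.10) and 50.0% of promoter peaks (1.11, 0.926 to 1.34). In Fisher's exact tests the adjusted p was 0.259 for both. The medians of the bands were 5.02, 5.10 and 5.20 from near to far. Read counts behind a peak are unknown, so the error of a single fold is too. The folds took 332 distinct values over 596 peaks, and 16 peaks shared the value 4.33.

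Peaks with an RBPJ word had the higher folds. The median was 5.83 with and 5.08 without the high-affinity word, and 5.41 with and 4.96 without the core. It was 5.08 with and 5.11 without the AP-1 word, 5.14 and 5.10 for TEAD, and 5.05 and 5.11 for RUNX. These medians are a description with no test.

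**Figure D4:**
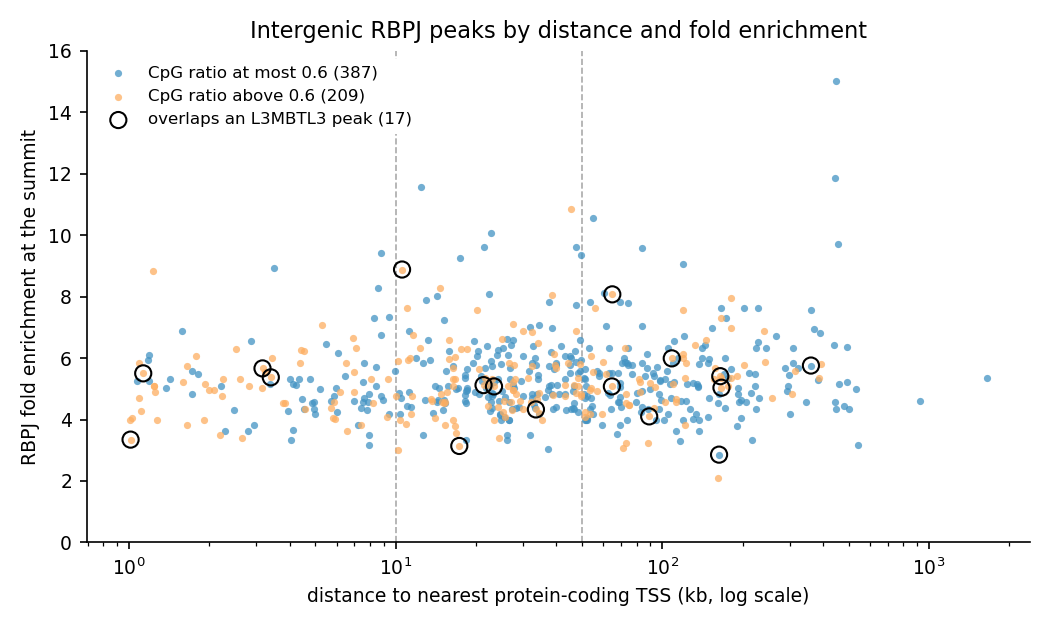
Deposited RBPJ fold enrichment at the summit (y axis) against distance to the nearest protein-coding TSS (kb, log x axis) for the 596 intergenic peaks, coloured by CpG ratio, with the 17 peaks that overlap an L3MBTL3 peak ringed. Dashed lines mark 10 and 50 kb. Peaks with a fold above 10 are at 12.4 to 448 kb, none of them ringed, against 2.85% ringed among all 596.

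The peak with the highest fold, 15.02, lay 448 kb downstream of the TSS of NR4A2, an orphan nuclear receptor gene of the immediate early class (chr2:156736523-156736824, −log10 q 32.8). The next were 443 kb upstream of UBE2E3, a ubiquitin-conjugating enzyme gene (11.9), 12.4 kb upstream of ANKRD33B (11.5), 45.2 kb downstream of AZIN2, an antizyme inhibitor gene (10.8), 54.8 kb downstream of EFEMP1, a matrix glycoprotein gene (10.6), and 22.7 kb downstream of OOSP3 (10.1). The remaining 6 of the 12 strongest lay near KLF6, which encodes a zinc finger factor (9.70, at 457 kb), BHLHE40, a transcriptional repressor (9.62), PLAUR, the urokinase receptor (9.61), LHX5, a homeobox factor (9.57), AP5S1 (9.40) and PHLDA1 (9.37). Of these 12 peaks, those of AZIN2, EFEMP1, PLAUR and PHLDA1 held the high-affinity word. Those of NR4A2, ANKRD33B, OOSP3, BHLHE40 and AP5S1 held the core without it, and those of UBE2E3, KLF6 and LHX5 had no RBPJ core within 100 bp. The UBE2E3 window held a TEAD word, and the KLF6 and LHX5 windows held none of the 5 words. None of the 12 overlapped an L3MBTL3 peak, but only 2.85% of all 596 intergenic peaks did, so this count says little. Nearest gene is a statement of position and does not say which gene a peak acts on.

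L3MBTL3 peaks overlapped 17 of the 596 intergenic RBPJ peaks (2.85%, 1.79 to 4.52), against 4.37% of all RBPJ peaks. The share was lower than at promoters, where 106 of 1876 did (5.65%, odds ratio 0.490, 0.291 to 0.825, Fisher's exact test, adjusted p = 0.00972). Among CpG-rich peaks alone it was 7.18% against 5.98% (odds ratio 1.22, Fisher's exact test, adjusted p = 0.896). Of genic peaks, 5 of 454 overlapped (1.10%, odds ratio 2.64, 0.965 to 7.20, Fisher's exact test, adjusted p = 0.0528), a difference that did not pass and was 1.22 in CpG-rich peaks. It passed when chromosome 6 (3.74, 0.0280), chromosome 9 (3.08, 0.0402) or chromosome 17 (3.30, 0.0259) was left out (Fisher's exact tests). The 17 peaks met 19 L3MBTL3 peaks, and the RBPJ and nearest L3MBTL3 summits were a median of 39 bp apart (1 to 210 bp).

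The 17 peaks included regions near Notch genes. The HES1 peak at 64.9 kb upstream, whose summit was 257 bp from a TSS of LINC02028, had an RBPJ fold of 8.07 and an L3MBTL3 fold of 6.56. HES1 encodes a Notch-induced repressor. The NODAL peak, at 10.6 kb from that secreted ligand's gene, had folds of 8.88 and 4.92 in the same order. One lay 17.3 kb upstream of ID1, an inhibitor of bHLH factors (3.14 and 6.62). One lay 1013 bp upstream of SPEN, which encodes an RBPJ corepressor (3.35 and 8.20), just outside the promoter limit. The RBPJ peaks at ID1 and SPEN were weak calls. Their −log10 q was 1.82 and 1.44, near the lowest intergenic value of 1.405. The fold of each protein is relative to its own library, so the values of a pair are set side by side and not compared.

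Of the other 13, FKBP5, a gene for a steroid receptor co-chaperone, had a pair of neighbouring RBPJ peaks 3.17 and 3.40 kb upstream (RBPJ folds 5.66 and 5.37). The FAM182B gene had 3 and FAM182A had 1 on chromosome 20, all 4 within 66 bp of a noncoding TSS of these related genes (RBPJ folds 2.86 to 5.76). One was 1 bp from the start of MIR29B2CHG, host transcript of microRNAs of the miR-29 family, 21.3 kb from CD34 (5.12 and 8.13). One each lay near STX11, a syntaxin gene (5.08), RD3 (5.08), GRID1, a glutamate receptor subunit gene (4.33), and NIPA1, a magnesium transporter gene (5.99). One was 85 bp from the pseudogene ANKRD20A5P on chromosome 9 (5.50), and one on chromosome 2 (chr2:90449118-90449234, 4.10). The peaks at NIPA1, FAM182A and ANKRD20A5P were in repeated sequence. In all, 9 of the 17 were within 1 kb of a noncoding TSS and 15 were CpG-rich.

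The high-affinity RBPJ word was in 10 of the 17 peaks (58.8%, 36.01 to 78.4), against 68 of the other 579 (11.7%; odds ratio 10.7, 3.96 to 29.1, Fisher's exact test, adjusted p = 3.88e-05). The 10 were the peaks of HES1, NODAL, ID1, SPEN, MIR29B2CHG and NIPA1 and the 4 of FAM182A and FAM182B. At SPEN the word lay past the end of the called RBPJ peak. The FAM182 peaks lie in related copies, so they do not count as independent cases. Without chromosome 20, which also leaves out the ID1 peak, the share was 41.7% of 12 (odds ratio 5.52, Fisher's exact test, adjusted p = 0.0451). Without chromosome 6 it was 71.4% of 14 (18.02, Fisher's exact test, adjusted p = 4.33e-06). With a −log10 q of at least 5 the call ended, at 55.6% of 9 peaks against 23.5% of 149 (odds ratio 4.07, Fisher's exact test, adjusted p = 0.232). The core was in 64.7% and 42.0% (adjusted p = 0.202), AP-1 in 11.8% and 22.6% (0.482), TEAD in 5.88% and 22.1% (0.233) and RUNX in 0 of 17 and 6.74% (0.618), none of which passed the Fisher's exact test. For the core the odds ratio was 2.53. It passed within 50 bp (4.72, Fisher's exact test, adjusted p = 0.00525) and without chromosome 6 (4.99, 0.0280). It was 1.41 without chromosome 20 and 1.33 within 250 bp, and turned to 0.797 with a −log10 q of at least 5, none of which passed. A count of 17 peaks leaves wide intervals: that of the AP-1 odds ratio ran from 0.103 to 2.02.

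Noncoding genes started beside many intergenic peaks. The summit was within 1 kb of a noncoding TSS for 189 peaks (31.7%, 28.1 to 35.5), against 26% of all RBPJ peaks, and within 100 bp for 86. The nearest such gene was a long noncoding RNA for 159 of the 189, a pseudogene for 16, a small nuclear RNA for 5 and a small nucleolar RNA for 4. By the annotation, 202 intergenic peaks (33.9%) lay inside a long noncoding RNA gene, against 9.03% of genic and 14.55% of promoter peaks. The rule leaves out protein-coding gene bodies only, and how much of the remaining sequence such genes cover was not measured. The share therefore cannot be read as a preference. The strongest peaks within 1 kb of a noncoding TSS were that near PLAUR (fold 9.61, 367 bp from a noncoding RNA without a symbol), that near AP5S1 (9.40, 335 bp), 1 at the start of LINC01186 on the X chromosome (9.05, 15 bp), 1 at the start of SFTA1P (8.93, 13 bp, 3.49 kb from CELF2) and 1 by HES1 (8.82, 305 bp). Transcription was not measured, so whether these noncoding genes were active in these cells is unknown here.

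Peaks beside a noncoding TSS held fewer words of 4 kinds than the other 407. The core was in 32.3% against 47.4% (odds ratio 0.528, adjusted p = 8.59e-04), AP-1 in 10.1% against 28.0% (0.287, 2.42e-06), TEAD in 12.2% against 26.0% (0.393, 2.67e-04) and RUNX in 2.12% against 8.60% (0.230, 0.00266), by Fisher's exact tests adjusted over 5 words. The high-affinity word was in 12.7% and 13.3% (0.951, 0.568 to 1.59, Fisher's exact test, adjusted p = 0.897). CpG-rich peaks made up 65.1% of the first group and 21.1% of the second, and repeated sequence 20.6% and 5.65%. Among CpG-poor peaks, 66 with and 321 without a noncoding TSS, none of the 5 passed, and AP-1 was in 24.2% against 33.0% (0.649, Fisher's exact test, adjusted p = 0.606). The 158 peaks with a −log10 q from 5 upwards, 46 with and 112 without a noncoding TSS, gave no call either. There the odds ratio was 0.315 for AP-1, 0.449 for TEAD and 0.289 for RUNX, and the core turned to 1.15. The high-affinity word turned in both of these sets (1.14 and 1.06) and within 50 bp (1.15), without passing.

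Words of different factors met in the same 201-bp window about as often as the product of their shares gives, with some exceptions. These counts are a description with no test. The core and AP-1 occurred together in 71 peaks, against 56.7 from the product of their shares (odds ratio 1.75). In CpG-poor peaks alone they occurred together in 65 against 64.3 (1.03). The core and TEAD occurred together in 70 against 55.0 (1.83), but with matches on shared bases set aside the count was 48 against 45.6 (1.12). The F2RL1 stretch printed above, with TGGGAATG, is such a case. AP-1 and TEAD shared 31 peaks against 28.8 (1.13), and in CpG-poor peaks 30 against 36.2 (0.690).

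Within 100 bp of the summit the RUNX word met the RBPJ core in fewer peaks than that product, a gap not seen within 250 bp (43 against 43.7, odds ratio 0.959). In the 100-bp setting they occurred together in 13 peaks against 16.6 (odds ratio 0.656), and in CpG-poor peaks in 13 against 20.03 (0.430). In CpG-poor genic peaks the same pair was found in 16 against 14.1 (1.33). RUNX and TEAD words shared 15 peaks against 8.44 (2.43), and 15 against 11.3 (1.62) in CpG-poor peaks. Within 250 bp that pair shared 33 against 28.7 (1.31). The high-affinity word occurred with AP-1 in 16 peaks against 17.4 (0.885), with TEAD in 21 against 16.9 (1.40, or 0.980 with matches on shared bases set aside) and with RUNX in 3 against 5.10 (0.536). Of the peaks that combined the high-affinity word with another, the highest folds were at CELF2 (8.93), NODAL (8.88), HES1 (8.07), F2RL1 (8.01) and BPI (7.89).

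Having other RBPJ peaks nearby was not particular to intergenic peaks. Another RBPJ summit of any class was within 10 kb of 202 (33.9%, 30.2 to 37.8), close to the 34.8% of all RBPJ peaks, and within 50 kb of 292 (49.0%). Within 50 kb the share was 46.3% in genic and 48.8% in promoter peaks. Joined at gaps of up to 50 kb, the intergenic peaks formed 467 runs: 369 single peaks, 77 pairs, 16 runs of 3 and 5 longer ones. The 227 peaks in runs were 38.1% of the 596, and no such share is given here for the other classes. Neighbouring summits can be parts of 1 wide region, so runs were not tested.

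The longest run held 8 peaks over 22.8 kb between ZSWIM4 and NANOS3 (chr19:13950008-13972909), around MIR23AHG, host transcript of the miR-23a cluster. Their folds were 5.69, 4.87, 4.39, 5.27, 5.83, 5.10, 4.74 and 7.24 from the lower to the higher coordinate. AP-1 words were in 3 of them, the core in 3, and the high-affinity word only in the last. No L3MBTL3 peak overlapped the run, which says little when 2.85% of all intergenic peaks had such an overlap. A run of 5 lay downstream of AZIN1 around the long noncoding RNA gene GASAL1 (folds 4.24 to 6.87, 4 with the core). There were 4 peaks upstream of TMEM63B by SCIRT (4.59 to 5.89) and 4 upstream of ZNF469 (5.34 to 7.30, 2 with AP-1).

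**Figure D5:**
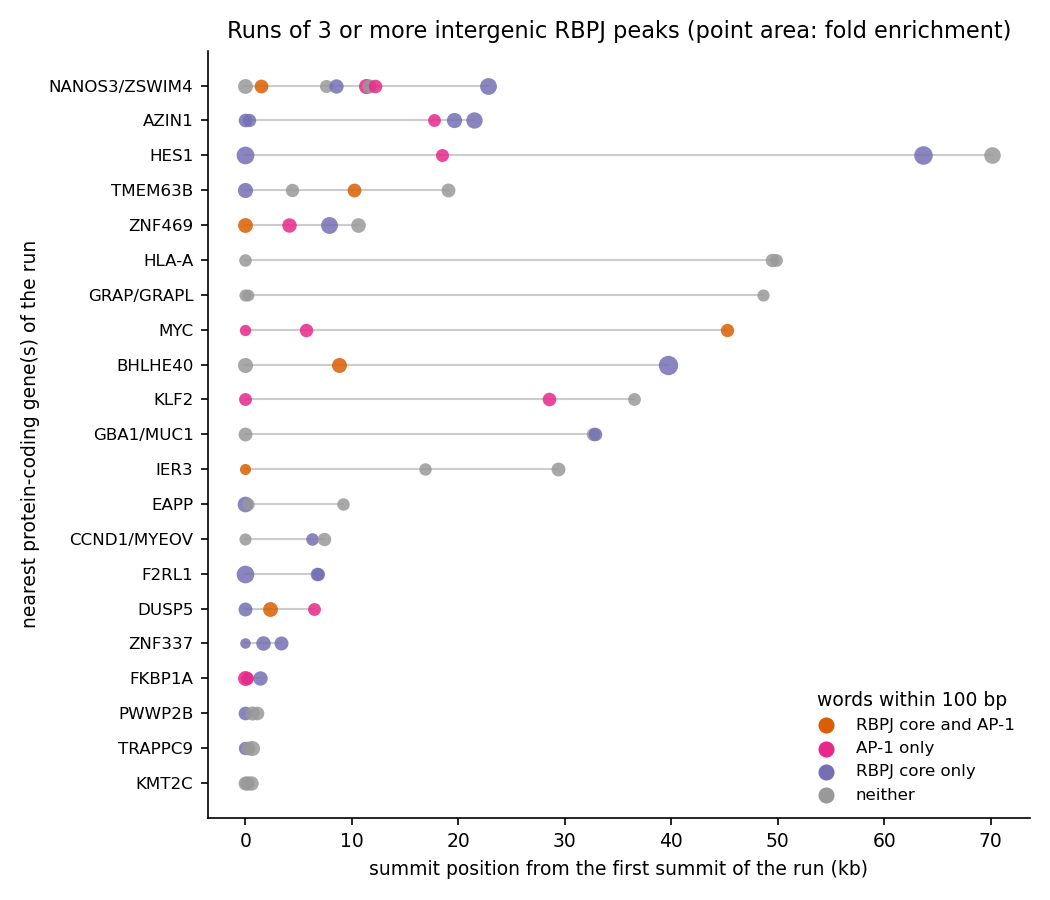
Positions of the peaks in the 21 runs of 3 or more intergenic RBPJ peaks (x axis, kb from the first summit), 1 line per run labelled with its nearest protein-coding gene or genes, with colour for the core and AP-1 words within 100 bp and point area for fold. The run at NANOS3 and ZSWIM4 has 8 peaks over 22.8 kb, and that of HES1 has 4 over 70.2 kb.

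HES1 was the nearest gene of 5 intergenic peaks. From 133 kb upstream to 5.29 kb downstream their folds were 6.43, 8.07, 4.33, 8.82 and 7.07. The first 2, at 133 and 64.9 kb upstream, held the high-affinity word, the peak at 1.23 kb upstream held the core alone, and the weakest, at 46.4 kb, held AP-1 and TEAD words without an RBPJ core. Of the 5 that at 64.9 kb overlapped an L3MBTL3 peak. As 2.85% of all intergenic peaks did, the lack of overlap at the others says little.

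MYC, a growth regulator and Notch target, was the nearest gene of 9 intergenic peaks, more than any other gene. All were downstream of its TSS, from 57.1 to 928 kb, and 8 of the 9 lay inside the long noncoding RNA gene PVT1. Their folds in order of distance were 4.93, 3.29, 4.60, 4.54, 5.46, 6.96, 6.43, 4.56 and 4.59. The high-affinity word was in 0 of the 9, the core in 3, AP-1 in 6 and TEAD in 3. Over all intergenic peaks the shares were 13.1%, 42.6%, 22.3% and 21.6% in the same order, and 9 peaks are few. The stretch beyond MYC is long: from its peak at 371 kb, the next protein-coding TSS on the far side was 1668 kb away (GSDMC). A distant peak there can have MYC as its nearest gene by position alone. CCND1, the cyclin D1 gene, was nearest to 4 peaks, all upstream, at 196, 144, 4.40 and 2.60 kb with folds of 4.63, 6.44, 6.27 and 5.33. The high-affinity word was in the closest of them. In all, 346 genes were nearest to 1 peak, 75 to 2 and 27 to 3 or more.

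Genes that flank intergenic RBPJ peaks were set against 5 gene lists. A gene flanked a peak when its TSS was the nearest one on either side, and 825 of 19748 protein-coding genes did (4.18%). Of 26 Notch targets, 13 did: HES1, HES5, HES7, HEY1, CCND1, MYC, GATA3, ID1, ID3, JAG1, NODAL, PLAU and SNAI1, and 27 peaks had a gene of this list as the nearest. Of 28 AP-1 and immediate early genes, which respond fast to growth and stress signals, 16 did, among them JUN, FOSL1, FOSL2, EGR1, KLF2, KLF6, NR4A2, DUSP1, DUSP4, DUSP5 and DUSP6, with 29 peaks. Of 24 YAP/TEAD targets 7 did (AMOTL2, ASAP1, CCN1, F3, IGFBP3, MYOF and NUAK2), and of 27 mesenchymal and matrix genes 6 did (ANXA1, COL5A1, ITGB1, PLAU, PLAUR and THBS1). None of 20 NF-kB target genes did. The counts are a description: they were not adjusted for the length of intergenic sequence beside a gene, which sets how often a peak falls there, and whether the genes were expressed was not measured. The lists were also chosen with earlier results of these data known. Their shares are therefore not independent of these peaks and cannot be read as an enrichment over all genes.

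Near immediate early genes, ZFP36, an mRNA decay factor, had a peak 2.87 kb upstream (fold 6.57, AP-1 word), KLF6 a second one 22.0 kb downstream (6.39, core), IER2 one 15.9 kb downstream (6.24, no word) and IER5 one 23.9 kb downstream (6.09, core and AP-1). Weaker peaks lay 4.01 kb upstream of ZFP36 (5.33, TEAD), 3.78 kb downstream of IER2 (4.54, core) and 16.7 kb downstream of IER5 (5.33, no word). DUSP5, a phosphatase of the ERK pathway, was nearest to 4 peaks at 32.4 to 89.6 kb (4.25 to 5.83, AP-1 in 2). Near YAP/TEAD targets, the TEAD word was within 100 bp of the summit at NUAK2 (6.06), ASAP1 (5.83), MYOF (4.58), IGFBP3 (4.33) and CCN1 (3.995). At AMOTL2 (6.08) it was not. The words at NUAK2 and CCN1 lay outside the called peak itself. Of the MYOF words, the nearer crossed the edge of the called peak and the other lay outside it. The MYOF and IGFBP3 peaks were 193 and 224 kb from the TSS of those genes. The calls at MYOF, IGFBP3 and CCN1 were weak, with a −log10 q of 2.41, 1.82 and 2.03. Over all intergenic peaks the share with the TEAD word was 21.6%. Near mesenchymal genes, PLAUR had the strongest peak (9.61) and PLAU, the urokinase gene, the weakest (3.62, at 2.28 kb), while THBS1, a matrix glycoprotein gene, had one 310 kb upstream with core and AP-1 words (6.32).

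The limit of the rule touched few peaks. Just inside it were peaks at 1004 bp from a TSS on chromosome 9 (fold 3.995), 1013 bp from SPEN (3.35) and 1023 bp from TRERF1 (4.04), and just outside it peaks at 997 bp from IRF2BP2 (5.15), 934 bp from KLF12 (5.34) and 932 bp from BHLHE40 (4.83).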

How the data were processed

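One RBPJ and 1 L3MBTL3 library of MDA-MB-231 cells were used, with no replicates. The authors trimmed adaptors (Trimmomatic) and mapped to hg19 (BWA 0.7.15), per the labels' protocols, and the submitters' processing notes name MACS2 as the peak caller. The sources used here do not give its version, cutoff or control. The deposited columns used were position, summit offset, fold enrichment (a ratio) and −log10 q. Peaks hold no read counts, and the authors' cutoff sets which regions appear.

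Peaks were classed against protein-coding transcripts of GENCODE 44 lifted to GRCh37 (19748 genes, 78399 TSS). Words were searched in GRCh37 with Python 3.11.15, and tests used scipy 1.17.1: exact McNemar and Fisher's exact tests, two-sided, Benjamini-Hochberg adjusted within each family, checked on simulated data. Shares have 95% Wilson and odds ratios 95% Woolf intervals, which cover counting error only. The members, words and gene lists were chosen with earlier results of these data known. The CpG division, 1 peak per kb, and leaving out chromosomes for L3MBTL3 were added after seeing the data. Named peaks were the 12 of highest fold, all with L3MBTL3 overlap, the highest in each distance band, the 4 longest runs, and the highest folds among peaks with combined words, near listed genes and at noncoding TSS. MYC, HES1, CCND1 and DUSP5 peak sets, and the order of peaks in a run, were singled out after their values were seen.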

Additional observations from a re-analysis of the deposited data

How the results depend on the processing

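Of all results recomputed under the alternatives, 556 kept their call and did not turn, 20 lost a call, 21 gained one, 17 turned direction and 6 values without a test moved; values here are odds ratios unless said otherwise. The flank comparisons of both RBPJ words, AP-1 and TEAD kept their calls under every window, flank, q, repeat and neighbour setting tried. That of RUNX did not: its difference fell to 0.839 percentage points within 50 bp, 2.53 at a −log10 q of at least 5 and 1.34 against the higher flank. The cause of these and of the other changes was not tested, except that stricter settings leave fewer peaks.

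Against genic peaks, the TEAD call was lost within 50 bp (0.890), at that q (0.792), with a 7-letter TEAD word (0.845), in CpG-poor peaks (0.929) and without chromosome 1 (0.720). Calls were gained within 250 bp for the high-affinity word (0.706), the core (0.654) and AP-1 (0.649), and for AP-1 without chromosome 6 (0.708), 8 (0.713) or 19 (0.721). The genic comparison of RUNX, near 1, turned within 250 bp (0.983), at that q (0.683), with a relaxed RUNX word (0.627, adjusted p = 0.00245, Fisher's exact test) and without chromosome 2 (0.873), 3 (0.947), 17 (0.946) or 20 (0.989). At that q the high-affinity word (1.21) and the core (1.21) also turned, and in CpG-poor peaks the core (1.18) and AP-1 (1.04) did, while the high-affinity word had the same share in both classes. Against promoters, CpG-poor peaks alone ended the calls of the high-affinity word (1.50), the core (1.69), AP-1 (1.17) and RUNX (1.76).

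Between distance bands, calls were gained within 50 bp for the high-affinity word (3.42), AP-1 (2.92) and TEAD (2.29), within 250 bp for the high-affinity word (2.17), AP-1 (2.54) and RUNX (2.78), and without repeated sequence for the high-affinity word (2.66), the core (1.81), AP-1 (1.90) and RUNX (4.78).

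For peaks with L3MBTL3 overlap, the high-affinity word lost its call at that q (4.07). The core gained one within 50 bp (4.72) and without chromosome 6 (4.99), and turned at that q (0.797). The overlap share gained a call over genic peaks without chromosome 6 (3.74), 9 (3.08) or 17 (3.30), and against promoters it turned in CpG-rich peaks (1.22).

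Beside a noncoding TSS, the high-affinity word turned within 50 bp (1.15), at that q (1.06) and in CpG-poor peaks (1.14), and the core turned at that q (1.15). Calls were lost at that q for AP-1 (0.315), TEAD (0.449) and RUNX (0.289), and in CpG-poor peaks for the core (0.815), AP-1 (0.649), TEAD (0.718) and RUNX (0.545).

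The number of intergenic peaks was 158 at that q and 307 outside genes of any type and over 1 kb from any TSS. Within 50 bp the co-occurrence odds ratio was 1.06 for the core with AP-1 and 0.0632 for the core with RUNX, which shared 0 peaks there. Within 250 bp it was 2.27 for the core with AP-1 and 0.959 for the core with RUNX. Joining at 100 kb put 43.6% of peaks in runs, and counting the nearest gene alone left 2.27% of genes. No paired analysis was possible because each antibody had 1 library. Depth limits what a list can show: a region without a peak may fall below the caller's cutoff, and the reads behind each peak are unknown.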
